A study of Arabidopsis thaliana with 6 samples.

Results

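U5 is the small nuclear RNA (snRNA) of the spliceosome that holds the ends of both exons, and the Arabidopsis thaliana coverage table of this series lists it in 14 copies. Every copy whose name begins with atU5 was taken, with 2 regions each: the snRNA itself, 124 to 133 bp long, and the 50 bp after its 3′ end, called the extension below. That gave 28 of 150 regions and 14 of 75 snRNA copies. Values were summed read depth, the number of reads over each base added up across a region. The 6 RNA-seq libraries came from total RNA of whole seedlings, 10 days old and of the Columbia ecotype, depleted of ribosomal RNA. The labels put 3 in the group CPL4 knockdown, made by RNA interference (RNAi), and 3 in the wild type, called biological triplicates. CPL4 removes phosphates from the C-terminal domain (CTD) of RNA polymerase II, and the series title asks how it bears on the switch between snRNA and mRNA transcription. The sources used here give neither the promoter of the RNAi construct nor how many independent lines were used.

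The FPKM of the targeted gene went against its label. In the authors' deposited table CPL4 (AT5G58003) stood at 8.84 FPKM in the labelled knockdown and 4.92 FPKM in wild type (fragments scaled by transcript length and library, 1 value per genotype), with q = 6.39e-04. This value does not separate transcripts of the gene from any of the RNAi construct, and the reason for the difference was not tested. Every direction below is therefore that of the libraries labelled CPL4 knockdown. The 2 shoot markers and 2 of the 4 root markers carried a test in the authors' deposited table. RBCS1A, a Rubisco subunit, had 5823 FPKM in the labelled knockdown and 4637 in wild type (q = 0.122), and CAB1, an antenna protein, 9631 FPKM in the labelled knockdown and 15003 in wild type (q = 0.00211). The root gene SCR had 11.0 FPKM in the labelled knockdown and 10.3 in wild type (q = 0.674), EXPA7 of root hairs had 1.16 in the labelled knockdown and 1.10 in wild type (q = 0.918), and PLT1 of the root tip and SHV2 (COBL9) of root hairs were below 1 FPKM in both and carried no test. The part of the CAB1 difference in the results below was not tested. No library totals came with the table. Over all snRNA regions except atU5-13, depth summed to 1462519, 2718072 and 274395 in labelled-knockdown replicates 1 to 3, and 2179464, 7534954 and 4820223 in wild type replicates 1 to 3. Labelled-knockdown replicate 3 held the lowest sum.

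U5 snRNA forms the U5 particle with the large protein PRP8 and a ring of 7 Sm proteins, and joins U4 and U6 in the tri-snRNP before it enters the spliceosome. A loop of invariant sequence in U5 touches the last bases of the upstream exon and the first of the downstream exon while the exons are joined, and the Sm ring closes on a single-stranded Sm site near the 3′ end. RNA polymerase II transcribes plant U5 genes from an upstream sequence element and a TATA box. A 3′ box after the gene directs 3′ end formation, and the primary transcript is trimmed to the mature RNA.

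The sequences of these parts are given here because the results differ between copies. They were read from the RefSeq nuclear chromosomes of assembly TAIR10.1 at the TAIR10 coordinates of the deposited table, 5′ to 3′ on the strand of the gene. The longest run shared by all 14 regions, TCTTTCGCCTTTTACTAAAGAATA, covers the loop and starts at base 34, and all 14 held the Sm site ATTTTTGG from base 91 or 92. Both are in capitals in the snRNA sequences, and they do not overlap. Of all 75 snRNA regions, 18.7% held the run and 20% the Sm site on the same strand, against 8.46e-04% and 1.49% of genome windows of 126 bp on either strand. The 5 snRNAs shown are atU5-10, the deepest in wild type, atU5-4, whose extension was called, atU5-8, which had the lowest adjusted p, its nearest relative atU5-9, and atU5-13, whose values stand apart.
atU5-10 snRNA, chr5:4690300-4690432, minus strand: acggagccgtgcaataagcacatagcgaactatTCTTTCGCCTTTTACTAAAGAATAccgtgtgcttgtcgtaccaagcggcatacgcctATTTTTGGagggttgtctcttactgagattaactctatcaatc
atU5-4 snRNA, chr3:20642864-20642989, plus strand: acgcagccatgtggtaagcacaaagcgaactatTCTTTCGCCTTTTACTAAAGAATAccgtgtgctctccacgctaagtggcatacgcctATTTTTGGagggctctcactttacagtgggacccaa
atU5-8 snRNA, chr3:9225855-9225979, minus strand: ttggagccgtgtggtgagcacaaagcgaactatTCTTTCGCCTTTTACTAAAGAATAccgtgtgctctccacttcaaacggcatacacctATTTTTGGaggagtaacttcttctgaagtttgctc
atU5-9 snRNA, chr1:29923530-29923654, minus strand: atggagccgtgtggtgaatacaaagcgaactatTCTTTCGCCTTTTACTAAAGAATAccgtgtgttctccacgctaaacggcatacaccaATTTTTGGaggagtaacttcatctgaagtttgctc
atU5-13 snRNA, chr5:21812656-21812785, minus strand: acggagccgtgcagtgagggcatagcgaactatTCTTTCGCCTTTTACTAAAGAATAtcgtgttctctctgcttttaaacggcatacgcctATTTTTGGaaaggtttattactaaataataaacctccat

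The copies lie on chromosomes 1, 3, 4 and 5, and they are similar enough to matter for read placement. The most alike pair, atU5.1b and atU5-4, was 97.6% identical, and the lowest identity between any pair was 71.5%. atU5.1b and atU5-3 shared an unbroken run of 102 bp, longer than a 100 bp read. Of all 50 bp words in atU5.1b, 74.0% occurred in another U5 copy, as did 72% in atU5-3, 58.7% in atU5-5, 57.1% in atU5-4, 44.2% in atU5-2 and 41.6% in atU5-6. The share was 22.1% in atU5-7, 18.4% in atU5-8 and 1.19% in atU5-10, and it was 0 in atU5.1, atU5-9, atU5-11, atU5-12 and atU5-13. The sources used here do not say how reads that fit several copies were placed. Values of the 9 copies that share such words are therefore uncertain between them, to different degrees. The words are a rough guide for 100 bp reads. atU5-10 shared 1 of 84, while atU5.1 and atU5-9, with 0, were 95.2% and 92.8% identical to atU5-2 and atU5-8. Sharing no word thus does not make a copy's values certain. The extensions are not alike: the longest run that any shared with another was 8 to 12 bp, and each whole 50 bp extension occurred once in the genome.

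The extensions and the promoters carried the known snRNA gene elements to different degrees. The longest run shared by all 14 upstream stretches of 100 bp was TCCCACATCG, the letters of the upstream element, starting 76 to 80 bp before the snRNA. A TATA started 33 to 37 bp before it in all 14. The element was on the opposite strand in 0 of 14, and the 2 motifs did not overlap. Of all 75 copies, 73.3% held the upstream element in the 100 bp before the snRNA and 88% a TATA between 45 and 16 bp before it, against 0.0241% of genome windows of 100 bp and 16.2% of windows of 30 bp on either strand. The 3′ box, searched as CA, then 3 to 10 bases, then AGTNNAA, began at the first base of the extension in 5 of 14 copies: atU5-3, atU5-4, atU5-6, atU5-8 and atU5-9. On the same strand it was found after 37.3% of all 75 copies, against 4.88% of genome windows of 50 bp on either strand. On the opposite strand 1 U5 extension held it. Genome windows did not overlap, so motifs across their edges were missed, here and above. The search was exact, and the extensions of atU5.1b, atU5.1, atU5-2, atU5-5, atU5-7 and atU5-13 held AGT, 3 bases and AA near their starts. Copies without a match may thus hold a variant of the box. The upstream stretches of atU5-4, atU5-8 and atU5-13 are shown with the element and the TATA in capitals.
atU5-4 upstream, chr3:20642764-20642863, plus strand: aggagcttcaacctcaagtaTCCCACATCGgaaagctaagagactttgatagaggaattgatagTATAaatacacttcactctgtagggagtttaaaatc
atU5-8 upstream, chr3:9225980-9226079, minus strand: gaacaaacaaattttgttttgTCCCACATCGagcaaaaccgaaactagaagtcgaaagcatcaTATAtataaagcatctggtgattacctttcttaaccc
atU5-13 upstream, chr5:21812786-21812885, minus strand: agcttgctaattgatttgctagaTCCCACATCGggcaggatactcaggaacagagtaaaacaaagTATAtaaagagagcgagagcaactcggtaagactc
The extensions below are those with reads in at least 2 labelled-knockdown libraries, followed by the 3 with no depth in any library, with the 3′ box in capitals where the search found it.
atU5-4 extension, chr3:20642990-20643039, plus strand: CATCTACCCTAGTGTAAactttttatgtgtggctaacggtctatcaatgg
atU5-3 extension, chr1:26429857-26429906, plus strand: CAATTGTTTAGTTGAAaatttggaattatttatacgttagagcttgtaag
atU5-5 extension, chr1:8525042-8525091, minus strand: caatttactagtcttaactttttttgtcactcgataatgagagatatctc
atU5.1b extension, chr3:20725727-20725776, minus strand: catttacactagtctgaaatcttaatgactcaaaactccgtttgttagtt
atU5-13 extension, chr5:21812606-21812655, minus strand: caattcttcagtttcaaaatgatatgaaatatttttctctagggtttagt
atU5-6 extension, chr1:1215657-1215706, minus strand: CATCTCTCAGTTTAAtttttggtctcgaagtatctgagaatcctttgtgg
atU5-8 extension, chr3:9225805-9225854, minus strand: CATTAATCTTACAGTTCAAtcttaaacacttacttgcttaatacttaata
atU5-9 extension, chr1:29923480-29923529, minus strand: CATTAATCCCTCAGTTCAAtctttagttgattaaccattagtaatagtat

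U5 was made up of 1 dominant copy and many minor ones in both genotypes. Per base, atU5-10 had a mean depth of 52.1 in the labelled knockdown and 434 in wild type, above every other copy, apart from atU5-13 in the labelled knockdown. In wild type the next were atU5-5 at 75.9, atU5-4 at 63.7, atU5.1b at 63.0 and atU5-3 at 58.3, whose ranges over libraries overlapped. They were followed by atU5-8 at 45.0, atU5-6 at 34.1, atU5-9 at 27.6 and atU5-12 at 27.3, each overlapping its neighbour, and then by atU5-11 at 11.5, atU5-2 at 10.9 and atU5-7 at 7.28, again with overlap. The lowest in wild type was atU5.1, at 1.94 per base and below the range of the others, leaving out atU5-13. In the labelled knockdown the order of mean depth per base after atU5-10 was atU5-4 at 13.6, atU5-3 at 12.4, atU5-5 at 8.88, atU5.1b at 6.48 and atU5-6 at 4.10, all with overlap between neighbours, and the other 7 copies ranged from 0.254 for atU5.1 to 2.74 for atU5-8.

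Summed depth over the U5 snRNA regions was lower in the labelled knockdown. Without atU5-13 it was 9989, 22474 and 10195 in labelled-knockdown replicates 1 to 3, against 97727, 104778 and 131395 in wild type replicates 1 to 3, and the groups did not overlap. The means were 14219 ± 7149 in the labelled knockdown and 111300 ± 17756 in wild type (SD, n = 3 each), 7.83-fold lower in the labelled knockdown and 6.86-fold lower without its replicate 3. With atU5-13 the means were 98416 ± 87401 in the labelled knockdown and 111343 ± 17707 in wild type (SD, n = 3 each), and the groups overlapped. In these bulk seedlings fewer expressing cells and less RNA per cell cannot be told apart, nor, with no library totals, can a lower U5 level and a smaller library.

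**Figure D1:**
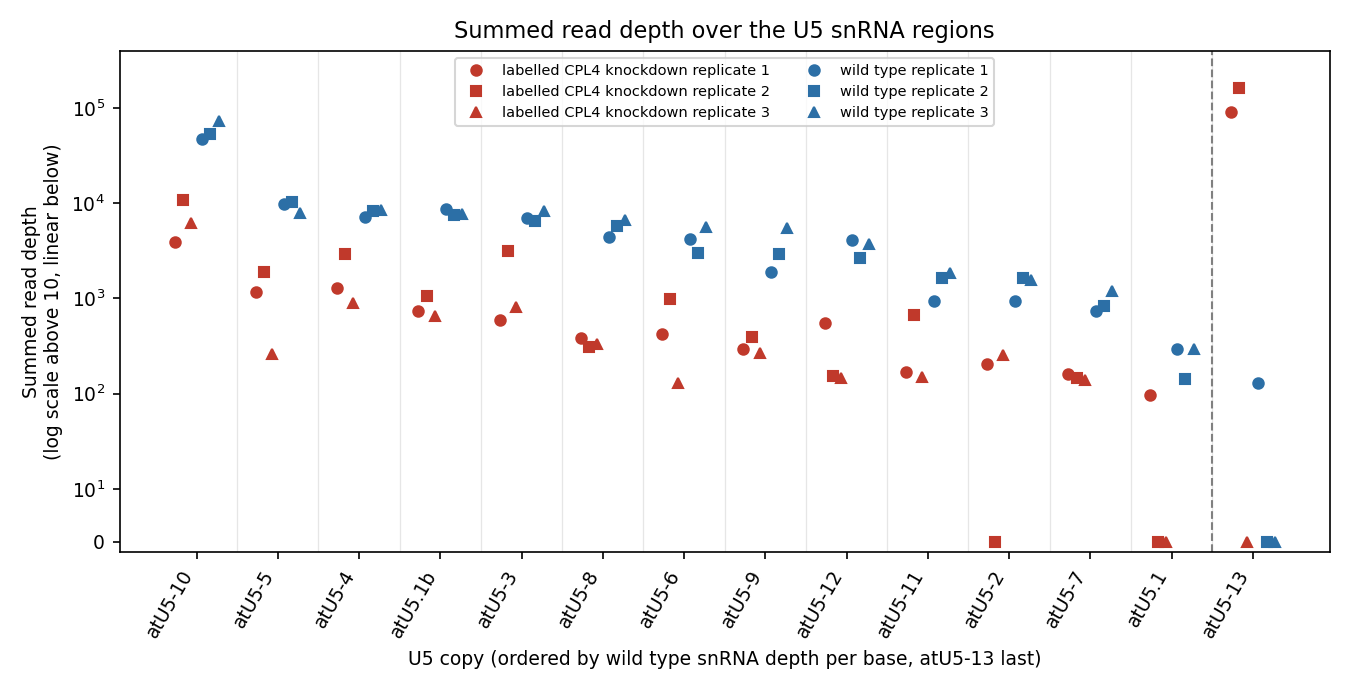
Summed read depth over each U5 snRNA region (vertical axis, log scale above 10 and linear below) for the 14 copies, with 1 point per library, labelled knockdown in red and wild type in blue. In 13 copies every red point lies below every blue one, and atU5-13, right of the dashed line, has 2 red points at 90090 and 162500.

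Copy by copy, all 13 U5 snRNA regions other than atU5-13 had each labelled-knockdown library below each wild type library, as had 31 of all 75 snRNA regions (41.3%). The fold between the means ran from 4.55 in atU5-11 to 16.4 in atU5-8, with a median of 8.33. In limma on log2(depth + 1), with no scaling between libraries and Benjamini-Hochberg adjustment over 150 regions, 8 of the 14 were called lower at an adjusted p under 0.05 and 0 higher, and 12 were lower at an unadjusted p under 0.05. Across all 75 snRNA regions 22.7% were called lower, and 27 were lower at an unadjusted p under 0.05. With the libraries scaled in either of 2 ways, both computed from these same regions, the 8 lower U5 calls became 1 or 0 (limma). The median log2 difference was −3.32 over the U5 copies with or without atU5-13, and −1.95 over all snRNA regions.

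atU5-8 had the lowest adjusted p of the called copies. Its depth was 386, 312 and 330 in the labelled knockdown, against 4397, 5748 and 6712 in wild type, a log2 difference of −4.02 (SE 0.19, limma adjusted p = 5.06e-04). Its relative atU5-9 had 294, 390 and 266 in the labelled knockdown, against 1904, 2952 and 5496 in wild type (log2 difference −3.32, SE 0.45, limma adjusted p = 0.0105). The call of atU5-9 was lost without labelled-knockdown replicate 1 (limma adjusted p = 0.0524) or wild type replicate 2 (limma adjusted p = 0.0521), while that of atU5-8 stayed without any 1 library. In both copies the 3 labelled-knockdown libraries lay close together and the wild type libraries spread more widely.

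The dominant copy, atU5-10, had 3921, 10728 and 6145 in the labelled knockdown, against 47448, 53423 and 72425 in wild type. It fell by 3.16 on the log2 scale (SE 0.44, limma adjusted p = 0.0107), and its adjusted p was 0.0521 in limma without wild type replicate 2. atU5.1b had 735, 1055 and 659 in the labelled knockdown, against 8621, 7504 and 7703 in wild type (log2 difference −3.31, SE 0.21, limma adjusted p = 8.96e-04). atU5-7, a minor copy, had 160, 146 and 138 in the labelled knockdown, against 736, 828 and 1186 in wild type (log2 difference −2.59, SE 0.21, limma adjusted p = 0.00234). The calls of atU5.1b and atU5-7 stayed without any 1 library.

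A further 3 copies were called with wider spread between the labelled-knockdown libraries. atU5-12 had 558, 155 and 146 in the labelled knockdown, against 4152, 2648 and 3766 in wild type (log2 difference −3.89, SE 0.63, limma adjusted p = 0.0192). atU5-4 had 1284, 2953 and 897 in the labelled knockdown, against 7248, 8363 and 8481 in wild type (log2 difference −2.41, SE 0.49, limma adjusted p = 0.0322). atU5-5 had 1161, 1882 and 262 in the labelled knockdown, against 9897, 10404 and 7949 in wild type (log2 difference −3.49, SE 0.82, limma adjusted p = 0.0492). These 3 calls depended on several libraries. That of atU5-12 was lost without any 1 wild type library (limma adjusted p = 0.0795, 0.0612 and 0.0775 without replicates 1 to 3). That of atU5-4 was lost without any library but labelled-knockdown replicate 2 (limma adjusted p = 0.124 and 0.0517 without labelled-knockdown replicates 1 and 3, and 0.0974, 0.112 and 0.116 without wild type replicates 1 to 3). atU5-5 was lost without labelled-knockdown replicate 1 (limma adjusted p = 0.124) or any 1 wild type library (limma adjusted p = 0.153, 0.154 and 0.132).

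The other 5 copies of the 13 did not pass the test, although their groups did not overlap. atU5-6 had 422, 998 and 130 in the labelled knockdown, against 4181, 3038 and 5658 in wild type (limma adjusted p = 0.0555). atU5-3 had 600, 3189 and 818 in the labelled knockdown, against 6965, 6444 and 8293 in wild type (limma adjusted p = 0.0723). Labelled-knockdown replicate 2 was the highest of the 3 in both. atU5-11 ranged from 148 to 666 in the labelled knockdown and from 942 to 1866 in wild type (limma adjusted p = 0.0851). atU5-2 had 204, 0 and 256 in the labelled knockdown, against 940, 1624 and 1566 in wild type (limma adjusted p = 0.248). The shallowest copy, atU5.1, had 96, 0 and 0 in the labelled knockdown, against 296, 142 and 294 in wild type (limma adjusted p = 0.153). These 2 copies were the ones at 0 in a labelled-knockdown library.

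The size of these differences depended on how libraries were scaled. When depth was divided by each library's median ratio to the geometric mean over regions with reads in every library, the median log2 difference over 123 regions holding reads moved to 0.97, against −0.69 with no scaling. The median of the 13 U5 snRNA regions then moved to −1.62, and that of the 66 snRNA regions with reads to −0.46, against −2.12 unscaled. With each library divided instead by its summed snRNA depth, these medians were −1.27 and −0.10. The sign stayed negative in all 13 copies under both scalings. Neither scaling is a separate measure of library size, since both come from these same regions and also take out change that the snRNAs share. The median-ratio fit called 1 U5 copy lower, atU5-5 (log2 difference −1.79, SE 0.27, limma adjusted p = 0.0162), where 2.67% of all snRNA regions were called lower, and the other scaling called 0 (limma).

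**Figure D2:**
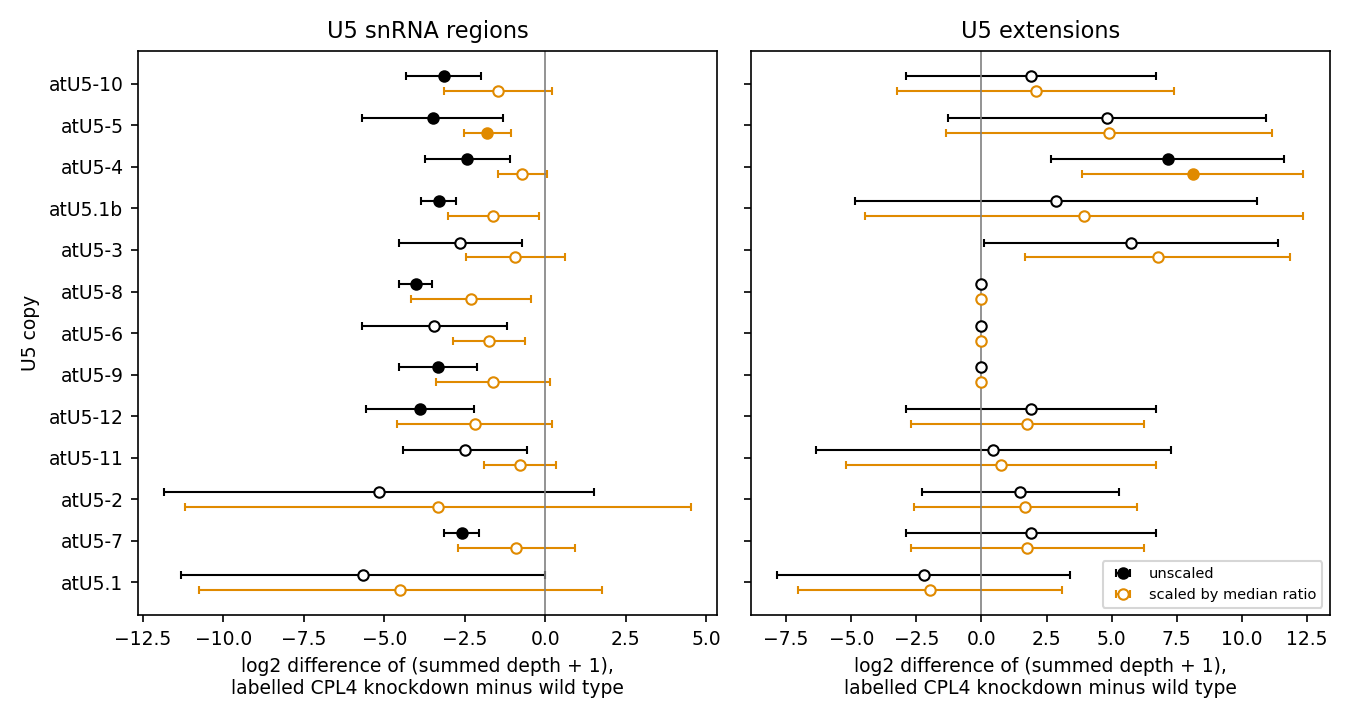
Log2 difference of (summed depth + 1), labelled knockdown minus wild type, for 13 U5 snRNA regions (left) and extensions (right), with 95% intervals from limma; black points are unscaled, orange ones scaled by median ratio, and filled points are called at an adjusted p under 0.05. All snRNA points lie left of 0, 8 of the black ones and 1 of the orange ones filled, and on the right the atU5-4 extension is filled in both.

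Set against other snRNAs of the same library, which needs no library total, U5 was lower relative to U2 and overlapped with wild type relative to U1, U4 and U6. U5 depth per U2 depth was 0.103, 0.106 and 0.292 in the labelled knockdown, against 0.615, 0.803 and 1.02 in wild type, and these groups did not overlap. Per U6, an RNA polymerase III transcript, it was 0.584, 0.595 and 0.925 in the labelled knockdown, against 0.558, 0.727 and 0.699 in wild type, and the groups overlapped, as they did per U1 and per U4. The U5 share of the snRNA depth of all families was 0.683%, 0.827% and 3.72% in the labelled knockdown, against 4.48%, 1.39% and 2.73% in wild type, overlapping as well. The mean share was 1.74% ± 1.71 in the labelled knockdown and 2.87% ± 1.55 in wild type (SD, n = 3 each). With atU5-13 it was 5.53% ± 1.57 in the labelled knockdown and 2.87% ± 1.55 in wild type (SD, n = 3 each), and U5 depth per U2 depth overlapped too. U5 depth per U6 depth with atU5-13 was 5.85, 4.90 and 0.925 in the labelled knockdown, against 0.559, 0.727 and 0.699 in wild type, and these groups did not overlap.

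**Figure D3:**
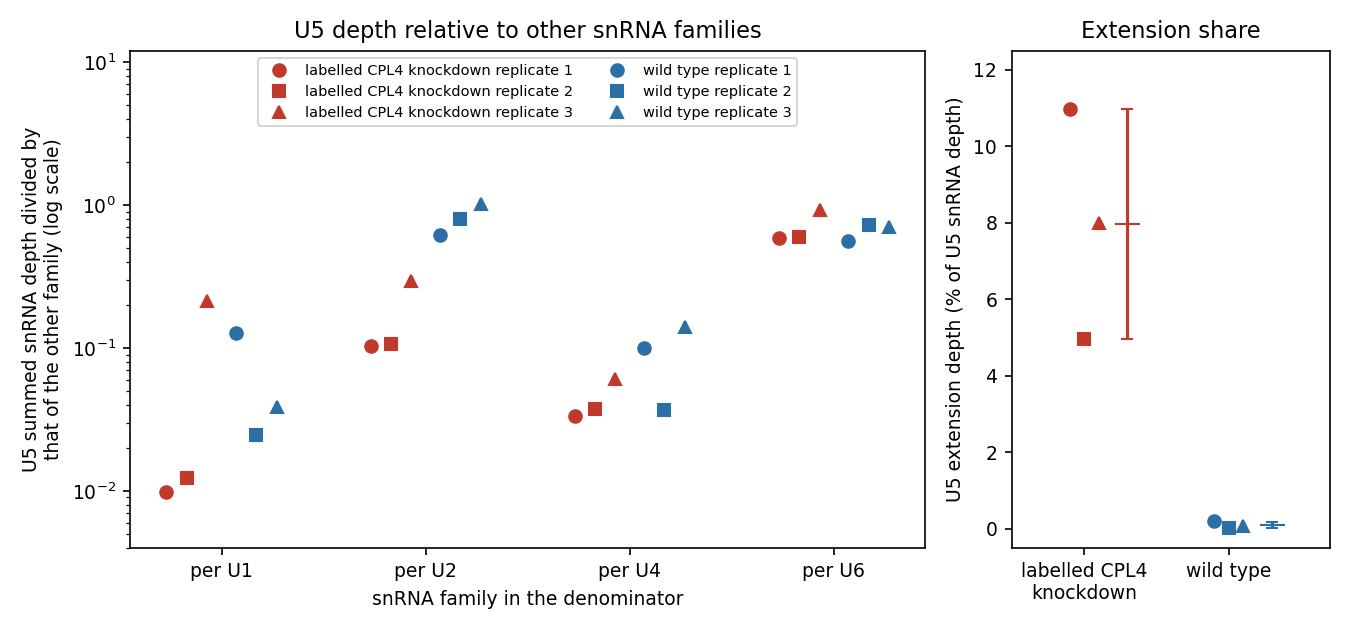
Left, U5 summed snRNA depth divided by that of U1, U2, U4 or U6 in the same library (log scale); right, U5 extension depth as a percent of U5 snRNA depth, with bars for the mean ± SD, all without atU5-13 and with 1 point per library. Labelled-knockdown points (red) lie below wild type (blue) for U2 alone, and on the right they run from 4.97% to 11.0%, against 0.0286% to 0.192% in wild type.

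The share of each copy in U5 snRNA depth overlapped between the genotypes for most copies. atU5-10 contributed 39.3%, 47.7% and 60.3% of U5 snRNA depth in the labelled knockdown, against 48.6%, 51.0% and 55.1% in wild type, without atU5-13. Of the 13 copies, 11 had overlapping shares, some of them spread widely, such as atU5-12 at 5.59%, 0.690% and 1.43% in the labelled knockdown against 4.25%, 2.53% and 2.87% in wild type. The exceptions were atU5-4, at 12.9%, 13.1% and 8.80% in the labelled knockdown against 7.42%, 7.98% and 6.45% in wild type, and atU5-8, at 3.86%, 1.39% and 3.24% in the labelled knockdown against 4.50%, 5.49% and 5.11% in wild type. These shares were not tested. With atU5-13 counted, that copy held 90.0%, 87.9% and 0% in the labelled knockdown against 0.133%, 0% and 0% in wild type, and atU5-10 held 3.92%, 5.80% and 60.3% in the labelled knockdown against 48.5%, 51.0% and 55.1% in wild type.

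Depth past the 3′ ends was higher in the labelled knockdown. Without atU5-13 the U5 extensions summed to 1097, 1116 and 815 in labelled-knockdown replicates 1 to 3, against 188, 30 and 100 in wild type replicates 1 to 3, and the groups did not overlap. The means were 1009 ± 169 in the labelled knockdown and 106 ± 79.2 in wild type (SD, n = 3 each), a 9.52-fold difference that was 15.5-fold without wild type replicate 1. Each read spanning an extension from end to end adds 50, so the sums stand for few reads in the labelled knockdown and very few in wild type. With atU5-13 the means were 33393 ± 31467 in the labelled knockdown and 123 ± 106 in wild type (SD, n = 3 each).

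As a percent of U5 snRNA depth, which needs no library total, extension depth was 11.0%, 4.97% and 7.99% in the labelled knockdown, against 0.192%, 0.0286% and 0.0761% in wild type. The means were 7.98% ± 3.01 in the labelled knockdown and 0.0990% ± 0.0842 in wild type (SD, n = 3 each). With atU5-13 they were 26.0% ± 15.6 in the labelled knockdown and 0.116% ± 0.113 in wild type (SD, n = 3 each). In all other families together it was 1.60% ± 1.31 in the labelled knockdown and 0.0176% ± 0.00657 in wild type (SD, n = 3 each). The 3 labelled-knockdown U5 values lay above the 3 labelled-knockdown values of the other families, which ran from 0.734% to 3.10%, and the 3 wild type U5 values likewise lay above the wild type values of the other families, which ran from 0.0104% to 0.0232%. The mean percent was 80.6-fold higher in the labelled knockdown for U5 and 90.9-fold higher for the other families. These differences were not tested, and the snRNA depth in the denominator was itself lower in the labelled knockdown. The U5 share of the extension depth of all families overlapped between the groups, at 7.26%, 5.34% and 9.04% in the labelled knockdown against 28.0%, 3.75% and 9.97% in wild type.

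**Figure D4:**
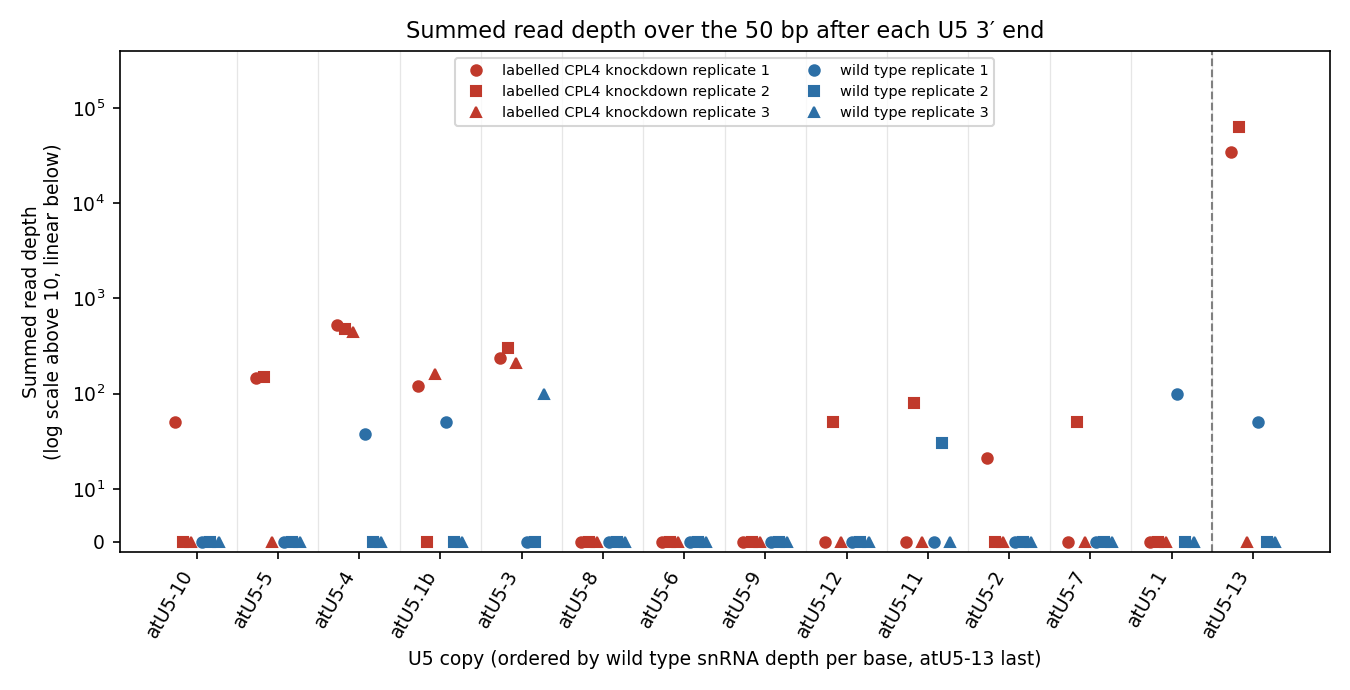
Summed read depth over the 50 bp after each U5 copy (vertical axis, log scale above 10 and linear below), with 1 point per library, labelled knockdown in red and wild type in blue, copies in the order of wild type snRNA depth. The red points of atU5-4 and atU5-3 lie above all their blue points, atU5-8, atU5-6 and atU5-9 are at 0 in all 6 libraries, and atU5-13, right of the dashed line, reaches 62500.

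The extension depth was not spread over the family in proportion to the snRNAs. atU5-4 and atU5-3 held 72.7% of it in the labelled knockdown, leaving out atU5-13, while the dominant copy atU5-10 had 50, 0 and 0 in the labelled knockdown and 0 in all wild type libraries. Over the 13 copies, 15 of 39 labelled-knockdown values were above 0, against 5 of 39 wild type values. Of these 20 values, 7 were exact multiples of 50. In limma 1 U5 extension was called higher and 0 lower, 2 were higher at an unadjusted p under 0.05, and 20% of all 75 extensions were called higher, while 22 of the 75 were higher at an unadjusted p under 0.05. The median log2 difference was 1.89 over the U5 extensions, with or without atU5-13, and 2.10 over all extensions.

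The called extension was that of atU5-4. It had 522, 482 and 444 in the labelled knockdown, against 38, 0 and 0 in wild type, a log2 difference of 7.15 (SE 1.68, limma adjusted p = 0.0492). All 3 labelled-knockdown libraries were far above wild type and close together, but their depth stood for few reads and the call was near the threshold. It was lost without labelled-knockdown replicates 1, 2 or 3 (limma adjusted p = 0.155, 0.125 and 0.115) or wild type replicates 2 or 3 (limma adjusted p = 0.149 and 0.137), and with each library divided by its summed snRNA depth (limma adjusted p = 0.0685). With median-ratio scaling it was kept (log2 difference 8.11, limma adjusted p = 0.0398), where 24% of all extensions were called higher.

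The atU5-3 extension had 239, 304 and 210 in the labelled knockdown, against 0, 0 and 100 in wild type (log2 difference 5.74, SE 2.11, limma adjusted p = 0.149). These 2 extensions were those of the 13 with every labelled-knockdown library above every wild type one, as were 24 of all 75 extensions (32%). The atU5-5 extension had 146, 150 and 0 in the labelled knockdown and 0 in all wild type libraries (limma adjusted p = 0.248). atU5.1b had 119, 0 and 161 after its 3′ end in the labelled knockdown, against 50, 0 and 0 in wild type (limma adjusted p = 0.577). Neither of these passed the test.

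Elsewhere the extensions were near or at 0. Those of atU5-2, atU5-7, atU5-10, atU5-11 and atU5-12 had depth in exactly 1 labelled-knockdown library, at 21 to 80, and atU5-11 had 30 in wild type replicate 2. The atU5.1 extension had 100 in wild type replicate 1 and 0 in the other 5 libraries. The extensions of atU5-6, atU5-8 and atU5-9 were at 0 in all 6 libraries, so no reads were detectable there at this depth. The 5 copies where the exact search found the 3′ box included both atU5-3 and atU5-4, with reads in all labelled-knockdown extensions, and these 3 copies with none.

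Relative to its own snRNA the atU5-4 extension stood at 40.7%, 16.3% and 49.5% in the labelled knockdown, against 0.524%, 0% and 0% in wild type. For atU5-3 the percent was 39.8, 9.53 and 25.7 in the labelled knockdown, against 0, 0 and 1.21 in wild type, and for atU5-5 it was 12.6, 7.97 and 0 in the labelled knockdown, against 0 throughout in wild type. Per base, the extension of atU5-4 had 10.4, 9.64 and 8.88 in the labelled knockdown, beside 10.2, 23.4 and 7.12 over its snRNA. In replicates 1 and 3 the stretch after this gene thus had at least the depth per base assigned to the gene. How reads were placed among the similar snRNAs of atU5-4, atU5-3, atU5-5 and other copies is not known, while their extensions are not alike. These percents, and the ratios tested below, carry that limit.

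In the limma test of log2(extension + 1) minus log2(snRNA + 1), adjusted over 75 copies, 6 U5 copies were called higher and 0 lower, 8 were higher at an unadjusted p under 0.05, and 38.7% of all copies were called higher, while 37 of the 75 were higher at an unadjusted p under 0.05. The 3 with extension reads were atU5-4 (log2 difference 9.57, SE 1.78, limma adjusted p = 0.0198), atU5-5 (log2 difference 8.30, SE 1.49, limma adjusted p = 0.0184) and atU5-3 (log2 difference 8.37, SE 2.06, limma adjusted p = 0.0421). The other 3, atU5-6, atU5-8 and atU5-9, had extensions at 0 in every library, so their values of 3.45, 4.02 and 3.32 are the drop of the snRNA against the pseudocount and no measured ratio. Among the 57 copies of all families with extension reads 45.6% were called. The call of atU5-4 was lost without labelled-knockdown replicates 1 or 3 or wild type replicates 2 or 3 (limma adjusted p = 0.0660, 0.0572, 0.0643 and 0.0600). That of atU5-3 was lost without any library but wild type replicate 3 (limma adjusted p = 0.106, 0.0814 and 0.109 without labelled-knockdown replicates 1 to 3, and 0.0973 and 0.122 without wild type replicates 1 and 2). The call of atU5-5 was lost without labelled-knockdown replicate 2 or any 1 wild type library (limma adjusted p = 0.0519, 0.0579, 0.0643 and 0.0598). With any 1 library left out, 0 to 3 copies with extension reads were called, and with a pseudocount of 10 in place of 1 there were 8 (limma).

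atU5-13 did not behave like the rest. Its snRNA region had a depth of 90090, 162500 and 0 in the labelled knockdown, against 130, 0 and 0 in wild type, and its extension had 34650, 62500 and 0 in the labelled knockdown, against 50, 0 and 0 in wild type. Per base that is 693 and 1250 in labelled-knockdown replicates 1 and 2, and 1 in wild type replicate 1, with the same value over the snRNA as over the extension in each of these 3 libraries. The depth was thus flat across the 3′ end, and it was at 0 in labelled-knockdown replicate 3. In no other U5 copy was the depth per base equal over both regions in a library with reads. Neither difference passed the test, at 8.91 (SE 5.80, limma adjusted p = 0.40) for the snRNA and 8.45 (SE 5.23, limma adjusted p = 0.380) for the extension. The deposited locus of AT5G53740, on the opposite strand of chromosome 5 from 21811633 to 21814908 (TAIR10), contains both regions. The same locus is given for AT5G53742, which carried no test. The sources used here do not say whether the kit marks strand, so the gene these reads came from cannot be told. In wild type replicate 1 the snRNA region alone summed to 130, more than 1 ungapped read of 100 bp can add. How this depth arose was not tested. AT5G53740 was called lower in the authors' deposited table, at 9.95 FPKM in the labelled knockdown and 17.3 FPKM in wild type (q = 6.39e-04).

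Genes that overlap a U5 copy, or that begin within 2000 bp after one on the same strand, numbered 12, of which 8 carried a test in the authors' deposited table. By the authors' deposited q at 0.05, 3 were called higher and 1 lower, where 12.7% of 18038 tested genes were called higher and 9.78% lower. AT1G70185, a non-coding RNA gene on chromosome 1 whose locus (26429733 to 26430069, TAIR10) starts at the first base of atU5-3 and spans its extension, had 8.30 FPKM in the labelled knockdown and 1.57 FPKM in wild type by the authors' deposited table, 5.28-fold higher (q = 0.0492). Since this locus holds the whole atU5-3 snRNA and its extension, its FPKM may rest on the same reads and is no separate result. Over the atU5-3 snRNA alone the mean depth went the other way, at 1536 in the labelled knockdown and 7234 in wild type. LAF3, a gene of phytochrome A signalling whose locus overlaps atU5.1b on the same strand, had 11.0 FPKM in the labelled knockdown and 5.63 FPKM in wild type in that table of the authors (q = 6.39e-04). Its locus (20721720 to 20725893, TAIR10) holds the whole atU5.1b extension and most of the snRNA. The FPKM of LAF3 may thus rest in part on the same reads and is no separate result. Nor can depth after atU5.1b be told apart from LAF3 transcripts. AT4G02530, which encodes a thylakoid lumen protein and begins 475 bp after atU5-7, had 78.2 FPKM in the labelled knockdown and 61.3 FPKM in wild type by the authors' deposited table (q = 0.0404). The gene called lower was AT5G53740, described with atU5-13. AT5G14540 after atU5-10, AT1G70190 after atU5-3, AT3G55646 after atU5-4 and AT1G79540 after atU5-9 were not called.

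Most tested genes for proteins of the U5 particle were called higher in the labelled knockdown. Of 12 U5 particle proteins, 11 carried a test by the authors, whose deposited table called 7 higher (63.6%, against 12.7% of all tested genes) and 0 lower, with a median log2 ratio of 0.44 where that of all tested genes was −0.00. SUS2, the PRP8 of Arabidopsis at the heart of the particle, had 90.5 FPKM in the labelled knockdown and 63.8 FPKM in wild type by the authors' deposited table (q = 6.39e-04). Its paralog AT4G38780 had 2.02 FPKM in the labelled knockdown and 0.601 FPKM in wild type, 3.37-fold higher in the authors' deposited table (q = 6.39e-04), and reads that fit both genes may be split between them. STA1, the relative of the PRP6 protein that in yeast bridges U5 to U4/U6, was 2.09-fold higher in the authors' deposited table, at 38.9 FPKM in the labelled knockdown and 18.6 FPKM in wild type (q = 6.39e-04). YLS8, the small U5 protein known as Dim1 in fission yeast, had 108 FPKM in the labelled knockdown and 70.2 FPKM in wild type by the authors' deposited table (q = 6.39e-04).

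The Sm core proteins, which form the ring on U5 and on the other Sm-class snRNAs, had 3 of 13 tested members (23.1%) called higher and 0 lower in the authors' deposited table, against 12.7% and 9.78% of all tested genes, with a median log2 ratio of 0.37. SMB had 66.2 FPKM in the labelled knockdown and 36.0 FPKM in wild type (q = 6.39e-04), SNRNP-G had 39.3 FPKM in the labelled knockdown and 23.4 FPKM in wild type (q = 6.39e-04), and SmD3 had 13.3 FPKM in the labelled knockdown and 9.02 FPKM in wild type (q = 0.0225), all in the authors' deposited table. Of 6 genes for snRNA transcription and 3′ end processing, 0 were called in either direction by the authors' deposited q, and by Cuffdiff's unadjusted p under 0.05 there was 1 higher and 1 lower, as were 3249 and 2828 of all 18038 tested genes, with a median log2 ratio of 0.07. These were SRD2, a promoter-binding factor for snRNA genes, at 0.685 FPKM in the labelled knockdown and 1.23 FPKM in wild type (q = 0.0661), and CPSF73-I, the nuclease of 3′ end cleavage, at 18.9 FPKM in the labelled knockdown and 15.3 FPKM in wild type (q = 0.0934), both from the authors' deposited table.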

How the data were processed

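Summed read depth per region was deposited by the authors as signal from SAMtools bedcov, as whole numbers for each library, with no scaling by library or length. The authors deposited FPKM, with a p-value and a q-value, as 1 value per gene and genotype; log2 ratios were computed from it. Per the submitters' processing notes, the build was TAIR10 and the tools were SAMtools, Cuffdiff 2.2.1.3, TopHat2 2.0.14, Trim Galore 0.4.0 and CASAVA 1.8.2. The sources used here give neither strandedness nor how reads with several origins were treated. Start-group values were not used here.

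For the tests, log2(depth + 1) was fitted by genotype alone with limma 3.58.1 (R 4.3.3) on all 150 regions and checked on simulated data. The simulated regions all had the same normal spread, so the check does not cover regions at or near 0. Such differences depend on the pseudocount where a group is at 0. Library sums are described without a test. The alternatives were a pseudocount of 10, the replicate number as a block, leaving out each library, a floor of 10 on mean depth, a mean-variance trend, 2 scalings, and atU5-13 left out. Genes were called at the authors' q under 0.05. Sequence searches used Python 3.11.15.

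Members, lists and tests were chosen with earlier results of these data known. All U5 copies are named, with values for called copies and atU5-13, the called neighbour genes, and up to 4 called members of each list with the largest log2 ratio; the 2 uncalled genes of the last list, and the copies below the threshold, were named after their values were seen.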

Additional observations from a re-analysis of the deposited data

How the results depend on the processing

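The 8 lower U5 snRNA regions became 1 with median-ratio scaling and 0 with each library divided by its summed snRNA depth (limma), and ranged from 3 to 12 when 1 library was left out. The fewest, 3, came without wild type replicate 2, and 5 were called without wild type replicate 1 or 3. The 12 came without labelled-knockdown replicate 2. Without labelled-knockdown replicate 3 there were 8 lower and atU5-13 was called higher. The 1 higher extension, that of atU5-4, became 0 with summed snRNA scaling. Without 1 library, 0 to 2 extensions were called, that of atU5-4 only without wild type replicate 1. The 2 without labelled-knockdown replicate 3 and the 1 without wild type replicate 3 were other extensions. The 6 ratio calls became 11 with a pseudocount of 10, of which 8 had extension reads, and 2 to 6 without 1 library. With the replicate number as a block, 3 snRNA regions, 0 extensions and 1 ratio, of a copy with no extension reads, were called (limma). The labels do not pair the numbers, so the block is given here only. Deviations of same-numbered libraries correlated at 0.0707, 0.0337 and 0.0293 over 123 regions. These values were small but above those of differently numbered libraries, which ran from −0.0600 to 0.0154. Such correlations do not show a shift common to all regions of a library, so they do not settle whether the numbers pair. For the summed snRNA depth, lower by 7.83-fold, leaving out 1 library gave 6.81 to 11.0 and keeping atU5-13 gave 1.13. For the summed extension depth, higher by 9.52-fold, the values were 7.01 to 15.5 and 272. The extension percent, higher by 7.88 points, ranged from 6.38 to 9.39 and was 25.9 with atU5-13. The U5 share of snRNA depth differed by −1.13 points, by −2.11 to −0.32 without 1 library, and by 2.66 with atU5-13. Of 4 called genes at or after U5 copies, 2 were called at q under 0.01, and of 10 called list genes 7 were. For single called copies, 183 alternative values held 119 that kept the call, 64 that lost it and 0 that changed sign. The kept calls include 6, 11 and 10 of 11 for the ratios of atU5-6, atU5-8 and atU5-9. Those are no measured ratios and follow the snRNA depth alone. The causes of these changes were not tested.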
